A study of Mus musculus with 3 samples.

Results

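A set of 10 genes of canonical Wnt signalling was followed across mouse kidney explants grown in 3 media. The set was chosen by name, with earlier results of these data known. It holds genes that report the pathway's activity (Axin2, Lef1, Tcf7, Lgr5), secreted R-spondins that strengthen it (Rspo1, Rspo3) and secreted inhibitors (Dkk1, Wif1, Sfrp1, Sfrp2). Of the 10, 9 were measured, each by the 1 probe set that the platform annotation gives to that symbol alone, among 19938 genes in all. Tcf7 had no such probe set in the annotation table and was not analysed here. The explants were kidneys taken from embryos of C57BL/6 mice at day 11.5, shortly after the ureteric bud starts to branch, and held on a porous Transwell filter for 48 h. They received serum-free DMEM with retinoic acid (the retinoic acid array), serum-free DMEM alone (the serum-free array), or DMEM with 10% FBS, fetal bovine serum (the serum array). RNA from each medium went onto 1 Affymetrix Mouse Gene 1.0 ST array, so there are 3 arrays, no replicates, no error and no test, and every difference describes these arrays only. The dose of retinoic acid, and how many kidneys went into each RNA, do not appear in the sources used here.

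In canonical Wnt signalling a secreted Wnt protein binds a Frizzled receptor and the co-receptor LRP5 or LRP6, which spares beta-catenin from destruction, and beta-catenin then switches on genes together with TCF and LEF proteins. R-spondins raise the number of Frizzled receptors at the surface through LGR receptors, Dickkopf proteins block the co-receptors, and secreted Frizzled-related proteins and WIF1 bind Wnt proteins outside the cell. In the mouse kidney, Wnt9b from the ureteric bud acts on nephron progenitors and induces Wnt4 in the cells that turn into the first nephron epithelia, while Wnt11 is made at the bud tips.

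Retinoic acid went with lower values of both R-spondin genes and of the inhibitors Dkk1 and Sfrp2, and serum withdrawal with a lower value of Dkk1. The recorded values of Axin2 differed little between the media, with an exact tie between serum-free medium and serum. Values are log2 of the deposited intensity, and a gene was counted where the difference reached a stated fold and the larger of its 2 values was no lower than a floor of 7.12, the median of all gene values. With retinoic acid against serum-free medium, among the 8 members above the floor 4 were at least 1.5-fold lower (Dkk1, Rspo1, Rspo3 and Sfrp2) and 0 were that much higher, where 1.94% of 10111 genes were that much lower and 2.41% that much higher. At 2-fold, 0 members were counted, against backgrounds of 0.613% lower and 1.05% higher. The members were chosen with earlier results of these data known, so their contrast with the shares over all genes is description only. In serum-free medium against serum, 1 of 8 members (Dkk1) was at least 1.5-fold lower and 0 were higher, with 2.07% of 10156 genes lower and 2.01% higher by that size, and 0 members reached 2-fold (0.699% of genes lower, 0.876% higher). With retinoic acid against serum, 3 of 8 members were at least 1.5-fold lower (Dkk1, Sfrp2 and Rspo1) and 0 higher (2.84% of 10169 genes lower, 2.46% higher), and Dkk1 and Sfrp2 were at least 2-fold lower (0.816% lower, 1.04% higher).

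The median difference over the 9 measured members was -0.19 for retinoic acid versus serum-free, -0.20 for serum-free versus serum and -0.41 for retinoic acid versus serum, and the median over all genes was 0 in each comparison. With Wif1 left out, which was under the floor, the medians of the other 8 were -0.41, -0.29 and -0.49 in the same order. Exact ties made up 51.6%, 45.4% and 46.5% of all genes, which holds the all-gene median at 0. At or above the floor the all-gene medians were 0, -0.004 and -0.005. There 35.1%, 51.0% and 51.3% of genes were below 0 and 29.5%, 19.5% and 21.2% above. The third difference of any gene is the sum of the first and second, and each pair of comparisons shares an array, so the comparisons are not independent. The explants are bulk tissue, in which fewer cells of a type and less RNA per cell cannot be told apart.

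**Figure D1:**
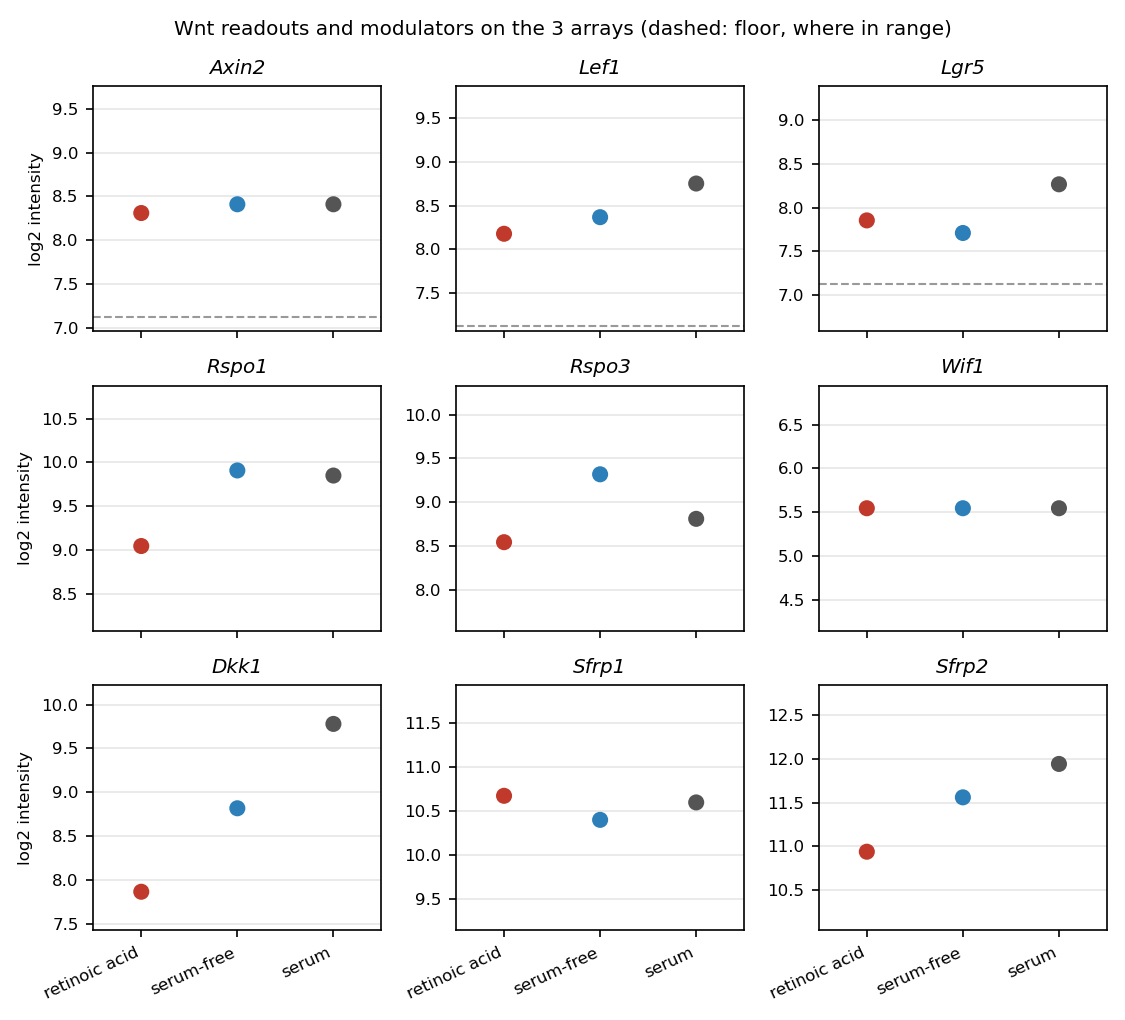
Log2 intensity (vertical axes, each spanning the same 2.8 log2 units) of the 9 measured genes on the retinoic acid, serum-free and serum arrays, 1 point per array, with the floor dashed where it is in range. Dkk1 stands at 7.86, 8.82 and 9.78 from left to right, Axin2 between 8.31 and 8.41, and Wif1 at the same value on all 3 arrays.

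Dkk1 encodes a secreted inhibitor that binds LRP6, and it had the widest range of the members. It stood at 7.86 with retinoic acid, 8.82 in serum-free medium and 9.78 in serum, or 233, 451 and 879 in intensity. The value was lowest with retinoic acid and highest in serum, with serum-free medium in between. The difference was -0.95 (1.94-fold lower) for retinoic acid versus serum-free, and 72 of 10111 genes were lower by as much or more. It was -0.96 (1.95-fold lower) for serum-free versus serum, matched or passed by 78 of 10156 genes counting Dkk1 itself. For retinoic acid versus serum it was -1.92 (3.77-fold lower), and 13 of 10169 genes, Dkk1 among them, were lower by that much. Dkk1 is known in human cells as a target gene of beta-catenin and TCF proteins as well as an inhibitor of the pathway.

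Sfrp2, a secreted Frizzled-related protein gene that is expressed in the mesenchyme-derived epithelia of the mouse kidney, had the same order of media. Its values were 10.94 with retinoic acid, 11.56 in serum-free medium and 11.94 in serum. It differed by -0.62 for retinoic acid versus serum-free and by -0.38 for serum-free versus serum. For retinoic acid versus serum the difference was -1.002, which only just met the 2-fold size and missed it under each of 3 other settings (-0.96 with cyclic loess scaling, -0.98 with median centring and -0.99 with 32 added to the intensities).

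Sfrp1, the related inhibitor gene, did not share this pattern. It stood at 10.67 with retinoic acid, 10.40 in serum-free medium and 10.60 in serum, so its highest value was with retinoic acid and its differences were 0.27, -0.20 and 0.08 in the order used above. Of the 8 members at or above the floor, Sfrp1 and Lgr5 were the 2 with a positive difference for retinoic acid versus serum-free. Wif1, which encodes a secreted protein that binds Wnt ligands, was at 5.55 on all 3 arrays, under the floor. RMA summaries over 3 arrays often return exactly equal values, as for 51.6% of all genes between retinoic acid and serum-free medium, so such a tie is no measure of equal expression.

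Rspo1 and Rspo3 encode R-spondins, the ligands of LGR receptors. Rspo1 stood at 9.04 with retinoic acid, 9.91 in serum-free medium and 9.85 in serum. The retinoic acid value stood apart and the other 2 were close, with differences of -0.86 (1.82-fold lower, reached by 93 of 10111 genes) for retinoic acid versus serum-free, 0.06 for serum-free versus serum and -0.80 for retinoic acid versus serum. Rspo3 was at 8.54 with retinoic acid, 9.32 in serum-free medium and 8.81 in serum. It was again lowest with retinoic acid, by -0.78 (1.71-fold lower) against serum-free, but highest in serum-free medium, by 0.51 against serum, so the difference between retinoic acid and serum was only -0.27.

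Of the 3 readouts measured, 0 reached 1.5-fold in any comparison. Over all genes at or above the floor, 1.94% to 2.84% were that much lower and 2.01% to 2.46% that much higher. A count of 0 among 3 genes is near those shares and says little about the readouts. Axin2, a feedback inhibitor that beta-catenin induces in most tissues and a common readout of the pathway, stood at 8.31 with retinoic acid and at 8.41 on both the serum-free and the serum array, a difference of -0.10. A difference as low or lower was found in 1767 of 10111 genes (17.5%) for retinoic acid versus serum-free. The serum-free and serum values of Axin2 were exactly equal, as for 45.4% of all genes. Such a tie is no measure of equal expression. Lef1, a transcription factor gene of the pathway that is expressed where nephrons begin to form, was at 8.18 with retinoic acid, 8.37 in serum-free medium and 8.75 in serum. Its differences were -0.19, -0.38 and -0.57, the last just short of 1.5-fold. Lgr5, which encodes an R-spondin receptor and marks the distal part of the early mouse nephron, was at 7.85 with retinoic acid, 7.71 in serum-free medium and 8.27 in serum. It was lower without serum by -0.56 and with retinoic acid against serum by -0.41, and it differed by 0.14 for retinoic acid versus serum-free. All 3 readouts had their highest value in serum, shared in Axin2 with the serum-free array.

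**Figure D2:**
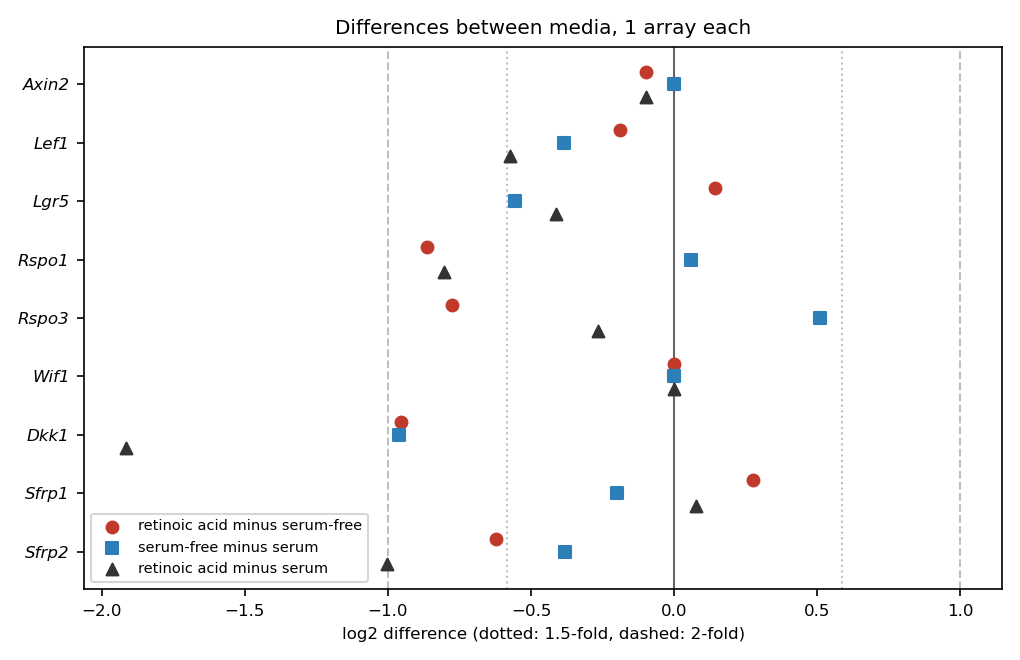
Log2 difference (horizontal axis) of each measured gene for the 3 comparisons, 1 array per medium, with dotted lines at 1.5-fold and dashed lines at 2-fold. For retinoic acid minus serum-free, Dkk1, Rspo1, Rspo3 and Sfrp2 lie left of the dotted line, and Dkk1 reaches -1.92 for retinoic acid minus serum.

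The upstream windows of the 3 genes with the widest ranges (Dkk1, Sfrp2 and Rspo1) and of the readouts Axin2 and Lef1 are shown so that windows with and without TCF/LEF letters can be set side by side. They are the 250 bases before the RefSeq start (GRCm38.p6), 5′ to 3′ on the gene's strand, at chr19:30549497-30549746 (minus strand) for Dkk1, chr3:83766071-83766320 (plus) for Sfrp2, chr4:124986180-124986429 (plus) for Rspo1, chr11:108920099-108920348 (plus) for Axin2 and chr3:131156044-131156293 (plus) for Lef1, of whose 4 windows the 1 with the letters is given. Capitals mark the TCF/LEF core letters, CTTTG followed by 2 bases that are each A or T, searched on both strands. The other Lef1 windows, at chr3:131110047-131110296, chr3:131110073-131110322 and chr3:131112541-131112790, lie upstream of the printed Lef1 window and hold none of these letters. The first and second of them overlap in most of their bases.
Dkk1: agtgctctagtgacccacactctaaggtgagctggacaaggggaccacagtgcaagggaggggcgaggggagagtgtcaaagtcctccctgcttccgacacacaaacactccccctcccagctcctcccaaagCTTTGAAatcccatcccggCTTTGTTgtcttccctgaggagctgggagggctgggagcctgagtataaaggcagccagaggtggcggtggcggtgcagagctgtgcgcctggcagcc
Sfrp2: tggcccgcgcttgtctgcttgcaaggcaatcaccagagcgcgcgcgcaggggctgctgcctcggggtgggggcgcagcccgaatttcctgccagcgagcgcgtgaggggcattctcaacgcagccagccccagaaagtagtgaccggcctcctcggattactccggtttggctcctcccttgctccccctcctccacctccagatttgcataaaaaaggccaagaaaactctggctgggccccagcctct
Rspo1: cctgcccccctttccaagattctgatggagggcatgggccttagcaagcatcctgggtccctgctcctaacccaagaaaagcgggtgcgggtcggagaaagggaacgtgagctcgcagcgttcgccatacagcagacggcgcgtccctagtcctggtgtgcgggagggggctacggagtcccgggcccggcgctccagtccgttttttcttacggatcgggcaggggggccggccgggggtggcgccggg
Axin2: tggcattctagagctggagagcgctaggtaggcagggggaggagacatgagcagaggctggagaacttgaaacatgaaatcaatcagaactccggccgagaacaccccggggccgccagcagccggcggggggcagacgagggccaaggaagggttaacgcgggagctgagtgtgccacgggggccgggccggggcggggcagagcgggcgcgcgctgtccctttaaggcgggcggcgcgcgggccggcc
Lef1: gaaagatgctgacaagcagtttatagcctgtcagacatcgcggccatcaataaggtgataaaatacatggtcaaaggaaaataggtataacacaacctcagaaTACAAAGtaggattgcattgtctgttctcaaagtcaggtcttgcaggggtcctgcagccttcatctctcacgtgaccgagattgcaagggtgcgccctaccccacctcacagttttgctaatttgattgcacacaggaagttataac

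The Dkk1 window holds these letters at 2 places on the gene's strand, CTTTGAA from 117 to 111 and CTTTGTT from 98 to 92 bases before the start. Of 32851 such windows over all genes, 14.8% hold the letters at least once and 1.43% at 2 or more places. RefSeq windows were matched for 6 of the 9 measured members (Axin2, Lef1, Rspo1, Dkk1, Wif1 and Sfrp2), with 9 windows, of which 2 held the letters, that of Dkk1 and 1 of the 4 of Lef1, where TACAAAG, on the opposite strand, lies from 147 to 141 bases before the start. Dkk1 and Lef1 differ in the size of their differences, and no link between letters and differences was tested. The direct repeats of AGGTCA spaced by 2 or 5 bases, a form of the retinoic acid receptor site, were in 0 of the 9 windows, and each was in 3 of the 32851. A match is a description of these letters only, and its absence says nothing beyond these windows.

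Among the Wnt ligands, only Wnt4 differed by 2-fold between any of the media. Over all genes at or above the floor, 0.613% to 1.05% did so per direction and comparison. Wnt4, which drives the change of mesenchyme into nephron epithelium, stood at 8.92 with retinoic acid, 7.49 in serum-free medium and 8.92 in serum. It was 2.68-fold higher with retinoic acid than without (1.42) and lower in serum-free medium than in serum by almost the same size (-1.43), so that the retinoic acid and serum values came out alike. Wnt11, a ligand gene of the bud tip, had 7.85 with retinoic acid, 7.52 in serum-free medium and 8.19 in serum. Wnt9b, the ligand gene of the bud that acts on nephron progenitors, lay near the floor, at 7.35 with retinoic acid, 7.14 in serum-free medium and 7.35 in serum, and Wnt7b, a ligand gene of the bud trunk, had 6.89, 7.05 and 7.27. Wnt5a, a ligand gene known for noncanonical signalling, differed by 0.53 for retinoic acid versus serum-free. Of the 19 ligand genes only 5 were at or above the floor in that comparison, all 5 with positive differences. Among all genes at or above the floor there, 29.5% were positive and 35.1% negative. The median over all 19 ligand genes was 0.

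Of 16 Frizzled, LRP and other receptor genes, 14 were at or above the floor and 0 reached 2-fold in any comparison. Over all genes at or above the floor, 0.613% to 1.05% did so per direction and comparison, so a count of 0 is near that share. For retinoic acid versus serum-free, Fzd2 was the 1 gene past 1.5-fold, at -0.59, where 1.94% of all genes were that much lower. Fzd7 stood at 0.57. Ror1, a receptor gene of noncanonical Wnt signalling, was higher by 0.68 for retinoic acid versus serum. Fzd6 had the largest difference between serum-free medium and serum, at 0.41. Lgr4, the R-spondin receptor gene of the ureteric bud and other kidney epithelia, was at 10.32 with retinoic acid, 9.84 in serum-free medium and 10.20 in serum, opposite in order to Rspo3. Rspo2, Rspo4 and Lgr6 lay under the floor on all 3 arrays. The ligase genes Znrf3 and Rnf43, which remove Frizzled receptors and are themselves induced by the pathway, differed by at most 0.12 in size, the largest being -0.12 for Rnf43.

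Of 16 other secreted or membrane inhibitor genes, 5 had negative differences, 4 positive and 7 none for retinoic acid versus serum-free. Among all genes 51.6% had none, and of those at or above the floor 35.1% were negative and 29.5% positive. The counts over the 16 include genes under the floor, which the shares of signs leave out, so they are not a like comparison. Only 7 of the 16 inhibitor genes were at or above the floor there, and 3 of those (Dkk2, Sostdc1 and Frzb) were at least 1.5-fold lower and 0 that much higher, where 1.94% of all genes were lower and 2.41% higher by that size. Dkk2, a Dickkopf gene, stood at 6.92 with retinoic acid, which is under the floor, 8.44 in serum-free medium and 8.13 in serum. The difference for retinoic acid versus serum-free was -1.52, or -1.31 with 32 added to the intensities, and its exact size is uncertain because the retinoic acid value is under the floor. For serum-free versus serum it was 0.31. Sostdc1, which encodes an inhibitor of BMP and Wnt signals, differed by -0.64 for retinoic acid versus serum-free. Frzb, a secreted Frizzled-related protein gene, was at 7.73 with retinoic acid, 8.35 in serum-free medium and 9.16 in serum, the order also seen in Dkk1 and Sfrp2. Its difference was -1.43 for retinoic acid versus serum and -0.81 for serum-free versus serum. The other 4 that were at or above the floor (Dkk3, Kremen1, Apcdd1 and Igfbp4) differed by less than 1.5-fold, and the median over all 16 was 0.

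Other feedback and target genes had no common direction. Of 16 measured, Lbh was the 1 gene at least 2-fold different, at 10.50 with retinoic acid, 9.45 in serum-free medium and 10.31 in serum, or 1.04 higher for retinoic acid versus serum-free. Like Wnt4, it was lowest in serum-free medium. Myc, a growth regulator gene with many inputs, was at -0.59 for retinoic acid versus serum-free and -0.90 for retinoic acid versus serum. Ccnd1, which encodes cyclin D1, was at -0.42 for serum-free versus serum and -0.58 for retinoic acid versus serum. In the same list 3 differences were above 0, 7 below 0 and 6 equal to 0 for retinoic acid versus serum-free. Among all genes 51.6% were equal to 0, and of those at or above the floor 29.5% were above and 35.1% below 0. Here too the counts include genes under the floor and the shares of signs do not. Among 25 genes of the intracellular machinery, 24 at or above the floor, 0 reached 2-fold in any comparison. Over all genes at or above the floor, 0.613% to 1.05% did so per direction and comparison, so a count of 0 is near that share. The largest differences of these 25 were in co-repressor genes, Tle3 at 0.64 and Tle1 at -0.41 for retinoic acid versus serum-free. For serum-free versus serum they were Tle3 at -0.32 and Tle4 at 0.24, and for retinoic acid versus serum Tle1 at -0.59 and Tle3 at 0.32.

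**Figure D3:**
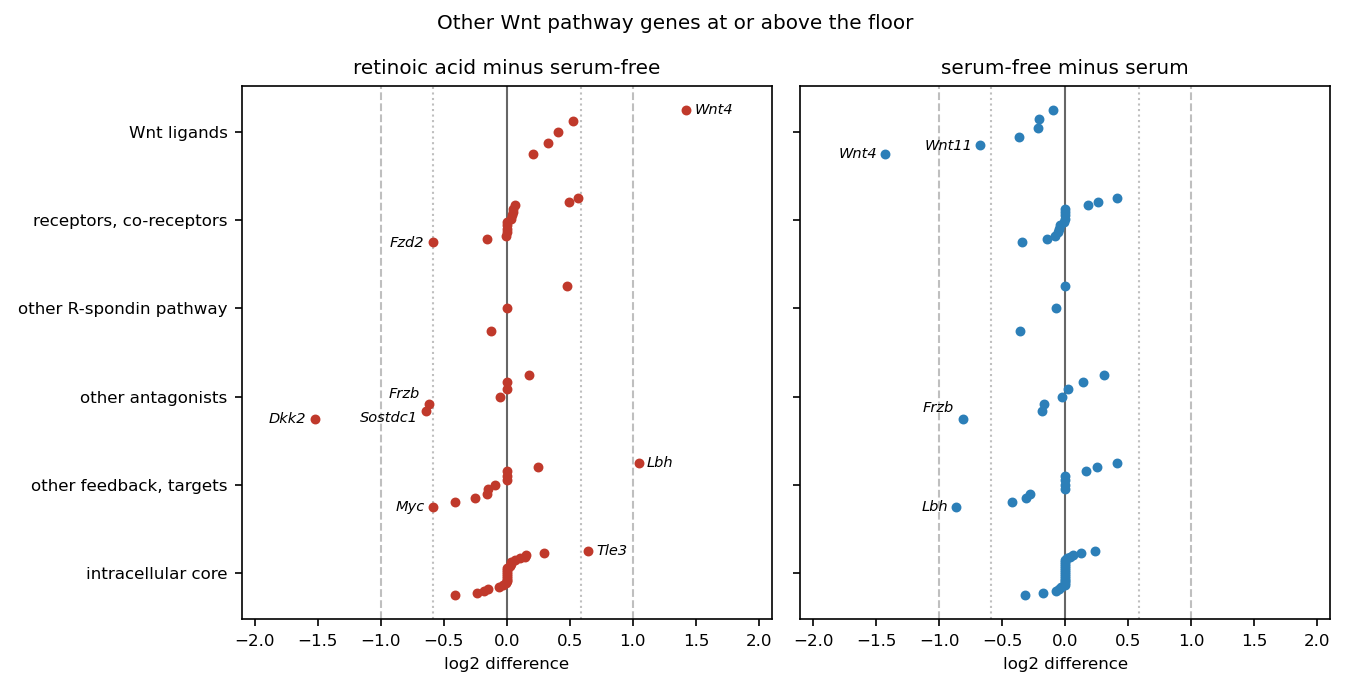
Log2 differences (horizontal axes) of the other Wnt pathway genes at or above the floor, 1 point per gene, grouped by role, for retinoic acid minus serum-free (left) and serum-free minus serum (right), with dotted lines at 1.5-fold and dashed lines at 2-fold and names for genes past 1.5-fold. Wnt4 lies at 1.42 on the left and -1.43 on the right, and Dkk2 at -1.52 on the left.

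Markers of cell types differed between the same arrays. Of the 9 cap mesenchyme markers measured (genes of nephron progenitors), 7 had negative differences for retinoic acid versus serum-free, where 35.1% of all genes at or above the floor did, with Cited1 at -2.13, Meox2 at -1.52, Osr1 at -0.97 and Six2 at -0.86 but Meox1 at 1.81. Their summed intensity was 8418 with retinoic acid, 12644 in serum-free medium and 10696 in serum, the order also found in Rspo1 and Rspo3. Of 10 smooth muscle and ureter mesenchyme markers, 7 had negative differences for retinoic acid versus serum-free and 8 for serum-free versus serum, counting those under the floor. At or above the floor were 6 in the first, Acta2, Tagln, Myl9 and Des (-0.05) negative and Tbx18 and Tshz3 positive. In the second 8 were, all but Des negative. Of all genes at or above the floor, 35.1% were negative and 29.5% positive in the first, and 51.0% and 19.5% in the second. The 10 markers summed to 4770 with retinoic acid, 5534 in serum-free medium and 12125 in serum, the order of Dkk1, Sfrp2 and Frzb. Acta2, at 9.72, 11.11 and 12.42, held 843, 2211 and 5468 of these sums. Without Acta2 the other markers summed higher with retinoic acid than in serum-free medium, so the shared order of the sum rests on that gene. Tbx18 and Tshz3 of that list had their highest value with retinoic acid. The 9 early nephron markers measured summed to 3655 with retinoic acid, 2428 in serum-free medium and 4780 in serum, an order shared by Lgr5 (Wnt4 is itself on that list). Ureteric bud tip markers, Wnt11 among them, summed to 8760, 5484 and 8661 in the same order of media, and renal stroma markers to 16136, 15854 and 16902. The stroma sum covers opposite differences. For retinoic acid versus serum-free, 5 of its 9 measured markers were above 0, 3 below and 1 equal. Tcf21 stood at 0.45, Meis2 at 0.39, Dcn at -0.40, Pdgfrb at -0.68 and Lum at -1.59. Lum and Pdgfrb had the order of media of Rspo1 and Rspo3, and Dcn that of Dkk1 and Sfrp2. Bud trunk markers summed to 7704, 5248 and 8086, but without Calb1 the other 9 summed to 3860, 4400 and 4829, and the median difference of all 10 was 0.01 for retinoic acid versus serum-free. Macrophage markers summed to 6658, 9127 and 3087. Of these markers 10 of 10 were at least 2-fold higher in serum-free medium than in serum, where 0.876% of 10156 genes were. Endothelial markers summed to 8024, 9441 and 6740, and the 8 neuron and glia markers measured to 4460, 4126 and 2493. Without Stmn2 the other 7 summed to 1593, 2989 and 1629. Of the 8, 5 had negative differences for retinoic acid versus serum-free (35.1% of all genes at or above the floor), with a median of -0.40 and with Dbh at -2.13 and Chga at -1.85. In that comparison 7 of the 8 were at or above the floor. No intensity was listed at 0. The part of these cell types in the differences of the Wnt genes was not tested.

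**Figure D4:**
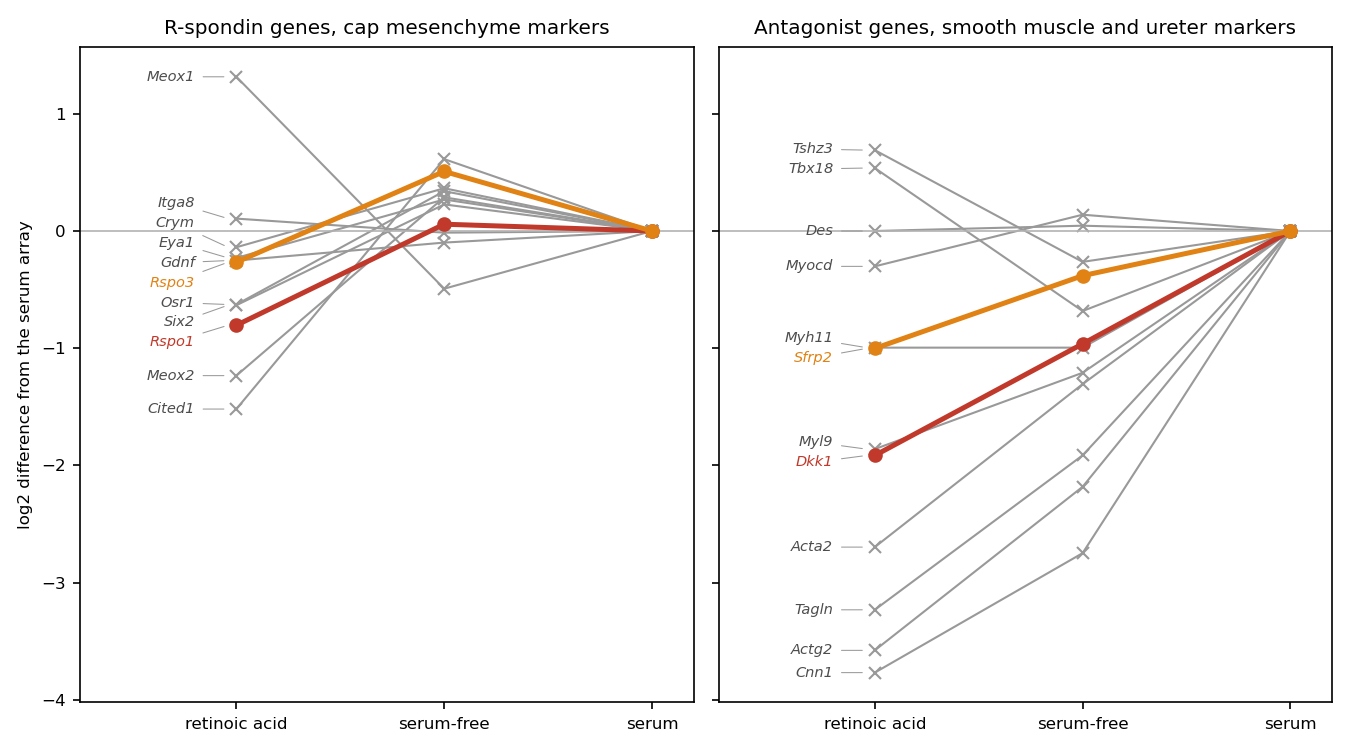
Log2 difference from the serum array (vertical axis) on the retinoic acid, serum-free and serum arrays for Rspo1 and Rspo3 beside the 9 measured cap mesenchyme markers (left) and for Dkk1 and Sfrp2 beside 10 smooth muscle and ureter mesenchyme markers (right), with lines joining the 3 values of a gene and markers in grey. Rspo1 lies at -0.80 and Dkk1 at -1.92 on the retinoic acid array, and the markers spread both above and below them.

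The genes most like the 3 members of widest range were found by the Euclidean distance between the 3 log2 values, each centred on its gene's mean. They came from 338 other genes (339 for Rspo1) with a range of at least 1 and a highest value at or above the floor. Gene models with Gm or Rik names were left out. Prss35, a serine protease family gene, was nearest to Dkk1, at a distance of 0.04, with values of 5.91 with retinoic acid, 6.83 in serum-free medium and 7.77 in serum. It was followed by Kcne3, a potassium channel subunit gene, at 0.22 and by Myl9, a myosin light chain gene of smooth muscle, at 0.23, and 5 genes lay within 0.25. Gpr176 was nearest to Sfrp2, at 0.02, before Tst at 0.05 and Plpp4 at 0.06, and 18 genes lay within 0.25. The values of Prss35, Kcne3, Gpr176 and Tst with retinoic acid and in serum-free medium lie under the floor, where background takes up more of the intensity, so their small distances are not a close measure of likeness. These genes met the floor only through their serum values, so a highest value in serum, as in Dkk1 and Sfrp2, was partly set by the filter. For Rspo1, whose own range of 0.86 is below the range asked of the other genes, the nearest were the transcription factor gene Tfap2a at 0.11, the chemokine gene Cxcl13 at 0.14 and Cavin3 at 0.15, with 11 genes within 0.25.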

How the data were processed

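RNA (250 ng, per the labels' protocols) from explants in 3 media was hybridised to 1 array each. The authors deposited linear intensities per probe set (3.84 to 17250), made with Affymetrix Expression Console 1.1 and RMA (in general, background correction, quantile scaling and median polish), per the submitters' processing notes (settings not stated there). The median intensity was 84.7 with retinoic acid, 85.5 in serum-free medium and 81.5 in serum. The number of arrays limits the precision.

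Log2 was taken of the intensities as they stand. Of 35556 probe sets, 21789 carried 1 symbol, 1621 several and 12146 none in the table used; 21698 gene identifiers matched RefSeq (GRCm38.p6) and 0 symbols changed. A gene was represented by its probe set of highest mean. All members are named; other pathway genes are named where they differed 2-fold, were among the 2 largest of their list in a comparison, or belong to Wnt4, Wnt9b, Wnt11, Wnt7b and Lgr4, while marker genes and genes singled out as low or unlike the rest of their list were named after their values were seen. Some listed genes are not reported here. The members and lists were chosen with earlier results of these data known. Folds were counted by size only, with no p-value, because a group is 1 array. The counting and the motif search were tested on simulated data. Alternatives were 32 added to the intensities, median centring, cyclic loess (limma 3.58.1), the mean of a gene's probe sets, no floor and a floor at the 60th percentile (7.89). The value of Dkk2 with 32 added and the marker sums without Calb1, Stmn2 or Acta2 were chosen after seeing the data. Python 3.11.15, numpy 2.4.6, pandas 2.3.3 and R 4.3.3 were used.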

Additional observations from a re-analysis of the deposited data

How the results depend on the processing

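The count of members at least 2-fold lower for retinoic acid against serum was 2 as reported and became 1 with 32 added to the intensities, 1 with each array centred on its median and 1 with cyclic loess, because Sfrp2 lay at the threshold; Dkk1 was counted in each. The other 48 recomputed counts and medians stayed within 1.5 times the count or within the tolerance set for a median. That tolerance was the 95th percentile of the disagreement between probe sets of 1 gene, 0.28 for both comparisons with the serum-free array and 0.33 between retinoic acid and serum. For both comparisons with the serum-free array it is larger than the medians themselves (-0.19 and -0.20), so staying within it says little about them. The move from -0.19 to -0.41 for retinoic acid versus serum-free, with only members at or above the floor, lay within it. Of the 108 recomputed differences of single members, 0 changed sign, and the largest move was 0.13, with 32 added to the intensities. The mean of a gene's probe sets changed no member, since each has 1 probe set, so the member counts and medians under it were fixed in advance. Without a floor only Wif1 could be added, and its difference is 0 in each comparison, so those counts were fixed too. Both settings are part of the 48 results that stayed. Differences under about that tolerance, such as those of Axin2 and Sfrp1, cannot be told from disagreement between probe sets, and with 1 array per medium the variation between explants is unknown. No paired analysis was possible because each medium has 1 array.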
